A study of Mus musculus with 2 samples.

Results

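Immediate-early-high (IEG-high) microglia were the cells that held at least 4 unique molecular identifiers (UMIs, tags that mark single captured transcripts) summed over 9 immediate early genes: Fos, Fosb, Jun, Junb, Egr1, Ier2, Atf3, Dusp1 and Btg2. A cell was a barcode with at least 500 UMIs and at least 100 genes. The members were thus selected on their own measured UMIs, and the level of these 9 genes in them is a description of the choice. They numbered 403 of 1747 cells, of which 62 were among the 320 cells of the KO LPS library and 341 among the 1427 cells of the WT LPS library. They were compared with cells of the same library in which none of the 9 genes had a UMI, 94 in KO LPS and 388 in WT LPS.

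KO LPS came from PARK7/DJ-1 knock-out mice and WT LPS from their wildtype littermates. All mice were 3 to 4 months old and had received lipopolysaccharide into the peritoneum (LPS, a molecule of the bacterial coat that sets off inflammation in the whole body; 4 μg/g body weight) 24 h before the brain was taken. The knock-out is constitutive and carried by a gene-trap allele of Park7, so that it is not limited to microglia. CD11b+CD45int cells were sorted and captured by Drop-seq, in which barcoded beads take up the 3' ends of transcripts in droplets. There was 1 library per genotype, made from 2 pooled mice, and no library without LPS was analysed here. No test between genotypes was therefore possible, no p-value is given, and all intervals are 95% intervals that cover counting error only.

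Immediate early genes are transcribed within minutes of a stimulus, from factors that are already present in the cell, and their mRNAs decay quickly. Fos, Fosb, Jun and Junb encode subunits of the AP-1 transcription factor, Egr1 and Atf3 encode other transcription factors, Dusp1 encodes a phosphatase that switches off MAP kinases, and Btg2 encodes an antiproliferative cofactor of mRNA deadenylation. In microglia these genes respond to neuronal and inflammatory signals, and they are also known to be induced by enzymatic or mechanical dissociation of the brain. Which of these stimuli acted on the cells was not tested, since no library prepared in another way was analysed.

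Park7 was represented by 1 UMI in the 320 KO LPS cells and by 323 UMIs in the 1427 WT LPS cells. The KO LPS cells held 381305 UMIs in all, with a median of 963.5 per cell, and the WT LPS cells held 1989011, with a median of 1065. The libraries had no cell barcode in common. Cells with Xist but no Y-linked UMI numbered 200 in KO LPS and 565 in WT LPS, against 12 and 195 cells with Y-linked UMIs only, while 9 and 80 held both and 99 and 587 neither. At this depth these counts do not give the mix of female and male cells, and sex, genotype and library cannot be told apart between KO LPS and WT LPS.

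The number of immediate early UMIs followed the depth of the cell. The median member had 1425.5 UMIs in KO LPS, or 1669 in WT LPS, against 756.5 and 788 in the cells with a sum of 0. Members made up 19.4% of KO LPS cells (15.2 to 24.1, Clopper-Pearson interval) and 23.9% of WT LPS cells (21.7 to 26.2). When every cell was thinned to 500 UMIs, which left out no cell, 13 KO LPS cells (4.06%, 2.18 to 6.85) and 48 WT LPS cells (3.36%, 2.49 to 4.44) still reached a sum of 4. The thinned share was 1.21 times as high in KO LPS as in WT LPS, with an interval of 0.600 to 2.26, so that no difference was detectable at this depth. At the same depth 47.5% of KO LPS cells and 50.2% of WT LPS cells had at least 1 UMI of the 9 genes.

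**Figure D1:**
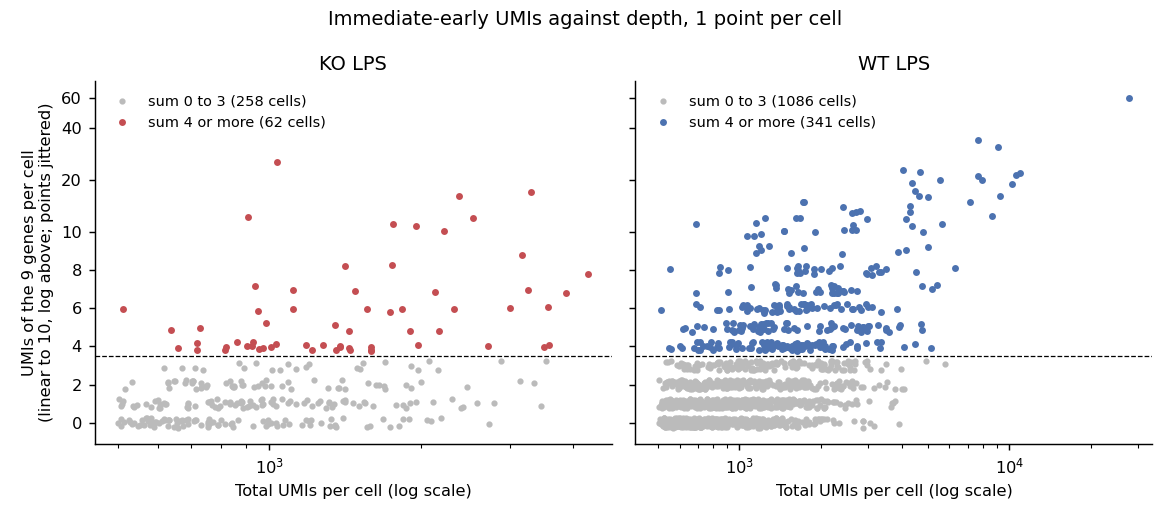
UMIs of the 9 immediate early genes (vertical axis, linear to 10 and logarithmic above, points jittered) against total UMIs (horizontal axis, log scale), 1 point per cell, for KO LPS (left) and WT LPS (right). Coloured points above the dashed line are the 62 and 341 IEG-high cells, and the cells of highest depth in WT LPS, up to 27757 UMIs, also reach the highest sums, up to 60.

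The sum had no gap at the chosen limit. A sum of 3 was seen in 23 KO LPS cells and 148 WT LPS cells, and a sum of 4 in 28 and 100 cells. The 9 genes stood at 2098 CPM (UMIs per 1e6 UMIs) in cells of KO LPS with a sum of 3 and at 2905 CPM in those with a sum of 4, and at 1986 and 2500 CPM in WT LPS. Members of KO LPS had a median sum of 5, and those of WT LPS of 6. In a single random thinning, which describes the choice and tests nothing, the variance of the sums was 2.24 times their mean in KO LPS and 1.45 times in WT LPS. Without the highest cell of each library this was 1.58 times in KO LPS and 1.41 times in WT LPS. The cell left out of KO LPS had 1036 UMIs and a sum of 25, made of 8 Egr1, 6 Ier2, 4 Junb, 2 Fos, 2 Jun, 2 Btg2 and 1 Atf3 UMIs.

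The AP-1 subunit Jun led the members of both libraries. It gave 175 of the 390 immediate early UMIs of KO LPS members (44.9%) and 968 of the 2350 of WT LPS members (41.2%), and was seen in 55 of 62 and 304 of 341 members. Its level in members was 1684 CPM in KO LPS, against 1271 CPM in WT LPS. The remaining order differed between the libraries. In KO LPS the Btg2 UMIs numbered 73, Egr1 48, Junb 42 and Fos 22, whereas Dusp1, Ier2, Atf3 and Fosb had 3 to 11. In WT LPS there were 457 Junb UMIs, 302 of Ier2, a short-lived nuclear protein gene, 256 of Btg2, 155 of Egr1, 110 of Fos, 84 of Dusp1 and 18 of Atf3. Fosb had 0 UMIs in all WT LPS cells, which allows up to 1.85 CPM by the exact Poisson limit.

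Members rarely held only 1 of the 9 genes. This describes the choice, since the same genes chose the members, and how far the limit of 4 UMIs alone gives it was not tested. At least 2 of the 9 genes were seen in 58 of 62 KO LPS members and 329 of 341 WT LPS members, and at least 3 in 30 (48.4%) and 254 (74.5%). Of the members with 1 gene, all 4 of KO LPS and 11 of 12 of WT LPS held Jun, and the other held Junb.

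Over all cells of a library, Ier2 was lower in KO LPS at 49.8 CPM than in WT LPS at 238 CPM, with a ratio of 0.209 (0.125 to 0.330). Junb stood at 0.586 (0.458 to 0.742) and Dusp1 at 0.559 (0.305 to 0.954), whereas Btg2 stood at 1.70 (1.39 to 2.06) and Egr1 at 1.39 (1.01 to 1.89). Jun, at 1.09 (0.956 to 1.23), and Fos, at 1.20 (0.821 to 1.72), did not differ beyond counting error. The sum of the 9 genes was 1715 CPM in KO LPS cells and 1795 in WT LPS cells, a ratio of 0.955 (0.878 to 1.04). The library and the genotype cannot be told apart in these ratios.

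Free RNA carried the same genes. Barcodes with 100 UMIs or fewer, which are droplets without a cell for the most part, held the 9 genes at 1595 CPM (1424 to 1781) in KO LPS, against 1283 CPM (1161 to 1414) in WT LPS. The KO LPS cells stood at 1.08 times this level (0.939 to 1.23) and the WT LPS cells at 1.40 times (1.26 to 1.56), so that in KO LPS no excess of the cells over free RNA was detectable. By gene, Ier2 was at 95.0 CPM in these WT LPS barcodes against 238 in the cells, and Junb at 225 against 349. Egr1 was at 117 CPM in the WT LPS barcodes against 100.1 in the cells, and at 126 against 139 in KO LPS. Jun was at 835 CPM in the KO LPS barcodes and 789 in the cells. The part of free RNA in the choice of members was not tested.

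**Figure D2:**
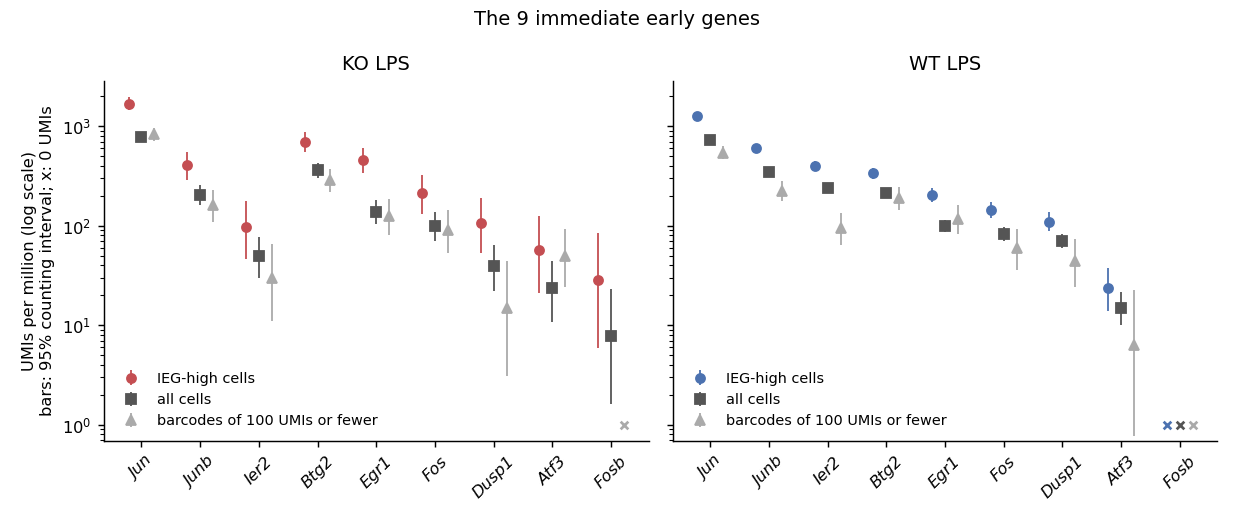
Level of each of the 9 immediate early genes (CPM, log scale, bars 95% counting intervals, crosses 0 UMIs) in IEG-high cells (coloured circles), all cells (squares) and barcodes of 100 UMIs or fewer (triangles) of KO LPS (left) and WT LPS (right). Members are above all cells by the way they were chosen, and Jun leads in every group, with 1684 and 1271 CPM in the members.

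Each gene was then read in cells chosen without it, which is independent of the rule for that gene. Cells with at least 4 UMIs of the other 8 genes were paired 1 to 1 in depth with cells that held none of those 8 genes. In WT LPS, Egr1 was higher in the cells that were high for the others, with 55 against 6 UMIs in 204 pairs, an 8.14-fold difference (3.51 to 23.2). It was seen in 18.6% of these cells and in 2.94% of their partners. The other AP-1 and feedback genes were 2.10 to 2.50 times as high in WT LPS, with Jun at 2.29 (1.82 to 2.88), Junb at 2.48 (1.83 to 3.40), Ier2 at 2.50 (1.70 to 3.74), Fos at 2.44 (1.32 to 4.74), Btg2 at 2.38 (1.57 to 3.69) and Dusp1 at 2.10 (1.00 to 4.70). Without the richest cell of each gene, Egr1 was at 7.60 (3.26 to 21.7) and Dusp1 at 1.87 (0.874 to 4.24), whose interval then included 1. Atf3 had 4 against 2 UMIs and could not be judged.

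In KO LPS the same reading rested on few UMIs. Egr1 had 20 against 2 UMIs in 44 pairs, a 9.35-fold difference (2.27 to 82.5), and Fos had 9 against 1, 8.26-fold (1.14 to 362). Leaving out, for each gene, the member richest in it, which held 8 of the Egr1 and 3 of the Fos UMIs, gave 5.71-fold (1.27 to 52.5) and 5.59-fold (0.678 to 257). Jun was 1.98 times as high (1.18 to 3.41; 1.81 without its richest member, 1.06 to 3.15) and was seen in 66.7% of the cells of both sides of its 21 pairs. Junb at 1.94 (0.836 to 4.87), Btg2 at 1.68 (0.860 to 3.39), Ier2 at 3.24 (0.617 to 32.0) and Atf3 at 3.64 (0.360 to 179) were higher by counts that error alone can give, and Dusp1 had 1 UMI on each side. Of the 7 Ier2 UMIs 6 lay in 1 cell, and without it Ier2 was lower in the high cells, at 0.471 (0.00798 to 9.04). Egr1 thus had the highest ratio in both libraries, also without the richest member. Its interval overlapped those of Fos, Ier2, Btg2, Dusp1 and Atf3 in both libraries and also those of Jun and Junb in KO LPS. Overlap of intervals does not settle whether 2 ratios differ, and the place of Egr1 ahead of these genes was not tested. The cell of KO LPS with a sum of 25 held 8 of the 48 Egr1 UMIs of the members.

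**Figure D3:**
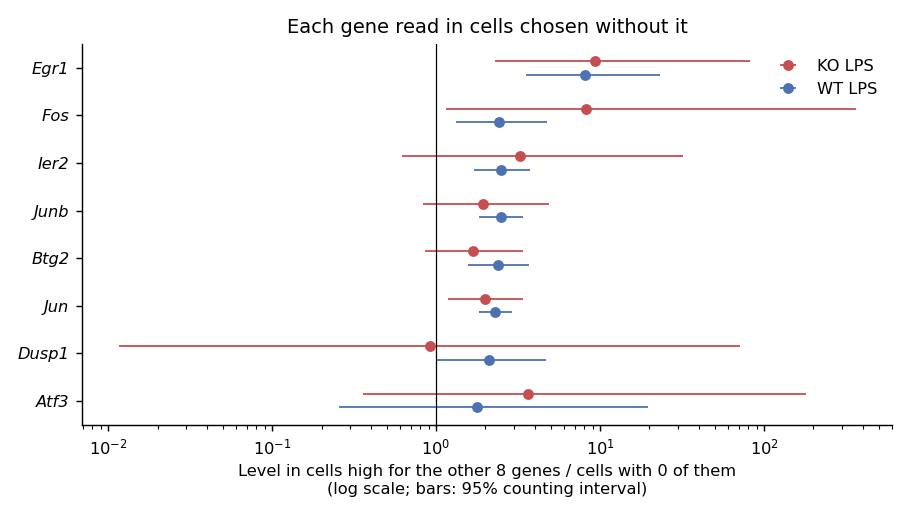
Ratio of each gene's level between cells with at least 4 UMIs of the other 8 genes and depth-matched cells with none of them (horizontal axis, log scale, bars 95% counting intervals), for KO LPS (red) and WT LPS (blue). Egr1 is highest at 9.35 and 8.14, and in WT LPS the intervals of 7 genes lie above 1, that of Dusp1 only while its richest cell is kept, that of Atf3 includes 1, and Fosb, with 0 UMIs in the WT LPS pairs, has no value.

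The start sites of the rule genes are shown because these genes chose the members, and because cyclic-AMP response elements (CRE) and serum response elements are textbook control sequences of this class. RefSeq (GRCm38.p6) promoters of 300 bases, most of them before the start site, were at hand for 7 of the 9 genes. Promoters of Ier2 and Egr1 were not used here. The CRE TGACGTCA, which reads the same on both strands, was found in Btg2 and Dusp1, that is in 2 of 7, against 588 of 32851 promoters of all genes (1.79%). The AP-1 motif TGANTCA (either strand) was in none of the 7 and in 7.81% of all promoters, and the CArG box of serum response elements was in none of the 7 and in 1.63% of all. A match is a run of letters and not a proven site, and no match speaks only for these letters in this window. Both promoters with a match, and those of Jun and Fos, which had none, are written 5′ to 3′ on the strand of the gene, with the CRE in capitals. They lie at chr1:134079106-134079405 (Btg2, minus strand), chr17:26508423-26508722 (Dusp1, minus strand), chr4:95052173-95052472 (Jun, minus strand) and chr12:85473640-85473939 (Fos, plus strand).
Btg2: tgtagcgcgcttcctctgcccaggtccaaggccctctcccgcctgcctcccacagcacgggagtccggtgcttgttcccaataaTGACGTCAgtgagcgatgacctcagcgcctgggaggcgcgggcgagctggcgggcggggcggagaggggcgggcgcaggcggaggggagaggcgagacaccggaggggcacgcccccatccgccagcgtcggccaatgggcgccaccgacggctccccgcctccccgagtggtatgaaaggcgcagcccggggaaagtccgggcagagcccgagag
Dusp1: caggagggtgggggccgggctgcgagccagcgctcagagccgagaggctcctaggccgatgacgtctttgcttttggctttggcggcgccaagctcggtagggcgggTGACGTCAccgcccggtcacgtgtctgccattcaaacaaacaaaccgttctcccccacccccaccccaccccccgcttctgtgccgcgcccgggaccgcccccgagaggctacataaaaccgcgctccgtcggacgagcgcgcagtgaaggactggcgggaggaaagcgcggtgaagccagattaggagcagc
Jun: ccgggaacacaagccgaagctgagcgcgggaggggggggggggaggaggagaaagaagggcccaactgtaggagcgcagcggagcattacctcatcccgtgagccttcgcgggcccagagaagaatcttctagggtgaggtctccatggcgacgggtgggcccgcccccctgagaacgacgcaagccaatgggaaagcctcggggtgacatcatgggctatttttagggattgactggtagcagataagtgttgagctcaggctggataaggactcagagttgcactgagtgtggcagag
Fos: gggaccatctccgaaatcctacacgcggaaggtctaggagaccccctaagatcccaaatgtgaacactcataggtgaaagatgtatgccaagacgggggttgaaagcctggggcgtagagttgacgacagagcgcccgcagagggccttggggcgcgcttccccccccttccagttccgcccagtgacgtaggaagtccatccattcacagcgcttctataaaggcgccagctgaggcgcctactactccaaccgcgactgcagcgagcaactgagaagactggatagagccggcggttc

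The CRE of Btg2 covers bases 85 to 92 of its run and that of Dusp1 bases 108 to 115. Among the 35 other immediate early genes with a promoter in the table, the CRE was in Maff, Plk2 and Ppp1r15a, the AP-1 motif in Csrnp1 and Zfp36l1, and the CArG box in Dusp5, Egr2, Srf and Zfp36.

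For all other genes, members were paired with cells of a sum of 0 of the same library, with UMI totals outside the 9 genes that differed by at most 20% of the deeper cell, and levels are CPM outside those genes. There were 50 such pairs for KO LPS, and 208 for WT LPS. The 12 KO LPS and 133 WT LPS members without a partner were the deepest, with medians of 3274 and 2751 UMIs, and are not described by what follows. Paired members were still somewhat deeper than their partners, with medians of 1243 against 1069 UMIs for KO LPS, and of 1301 against 1054.5 in WT LPS. Thinned to 400 UMIs, members of both libraries had a median of 313 genes against 304.5 and 303 in the cells with a sum of 0.

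A gene was called at a difference of at least 1.5-fold. In KO LPS 56 of the 346 genes that had at least 50 UMIs in members and partners together were higher in members (16.2%) and 33 lower (9.54%). In WT LPS 165 of 2192 were higher (7.53%) and 140 lower (6.39%). With at least 20 UMIs, the limit used for members of gene lists, 1197 genes were measured in KO LPS, of which 19.7% were higher and 12.6% lower, and 4821 in WT LPS, of which 12.6% were higher and 12% lower. These shares include differences that counting error alone gives, and the list counts are read against them.

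The other immediate early genes, a list of 45 of which 41 were in the matrices, were higher in IEG-high cells of both libraries. Their summed level was 5108 against 3380 CPM in KO LPS, a ratio of 1.51 (1.26 to 1.81), and 4263 against 2954 in WT LPS, a ratio of 1.44 (1.32 to 1.58). The small barcodes read above as free RNA held these genes at 3497 CPM in KO LPS and 2809 in WT LPS, near the level of the partners. Of the 10 genes with at least 20 UMIs in KO LPS 5 were called higher and 0 lower, with a median log2 ratio of 0.61 against 0.11 over all genes. Of the 19 in WT LPS 10 were called higher and 0 lower, with a median of 0.65 against 0.04.

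Jund, the AP-1 subunit that the rule left out, had 33 UMIs in the 50 KO LPS members and 11 in their partners, and 71 against 29 in the 208 WT LPS pairs. The ratios were 2.77 (1.36 to 6.07) and 2.18 (1.40 to 3.49). Rhob, an endosomal small GTPase, had 78 against 39 UMIs in KO LPS, 1.84 (1.24 to 2.78), and 92 against 52 in WT LPS, 1.58 (1.11 to 2.26). Both genes were thus higher beyond counting error in each library. The kinase gene Sgk1 was at 2.03 (0.922 to 4.80) and 2.19 (1.34 to 3.69), and Btg1, a relative of Btg2, at 1.92 (0.955 to 4.04) and 2.01 (1.31 to 3.15). For these the KO LPS interval included 1, and Sgk1 of KO LPS was lower in members, at a log2 ratio of -0.24, when Jun and Fos were left out of the rule.

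Some genes of this list were measured better in WT LPS. Ier5, a regulator of heat shock factor, had 53 against 15 UMIs there, 3.15-fold (1.75 to 6.02), and 18 against 10 in KO LPS, 1.66-fold (0.727 to 4.03). Ppp1r15a, the GADD34 subunit that reverses the block of translation under stress, had 18 UMIs in 14 members and 2 UMIs in 2 partners, 8.03-fold (1.92 to 71.3). Id2, an inhibitor of helix-loop-helix factors, was at 1.72 (1.23 to 2.43) and Ier3 at 1.82 (1.10 to 3.10). Of the mRNA-destabilising zinc-finger genes, Zfp36l2 was at 1.78 (1.11 to 2.92) and Zfp36 at 1.65 (1.01 to 2.74), and Zfp36l1 at 1.03 (0.741 to 1.43). Zfp36 was lower in members, at a log2 ratio of -0.36, when cells were thinned to 400 UMIs instead of paired.

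Other genes of the list were not called. In WT LPS, Dusp6 was at 1.14 (0.840 to 1.54), Klf6 at 1.12 (0.829 to 1.5), Mcl1, a survival factor of the BCL2 family, at 1.21 (0.892 to 1.66), Myc at 1.34 (0.777 to 2.34) and Plk3, the lowest of the list, at 0.725 (0.321 to 1.61). In KO LPS the lowest was Mcl1 at 0.709 (0.278 to 1.75). Nr4a1 and Ier5l had 0 UMIs in the pairs of both libraries. The list of MAP kinase and CREB feedback regulators was at 0.842 (0.541 to 1.31) in KO LPS and 0.995 (0.780 to 1.27) in WT LPS, with 0 of 5 genes called higher in WT LPS and 1 called lower, Sik2, a salt-inducible kinase, at 0.583 (0.297 to 1.12). No gene of this list reached 20 UMIs in KO LPS.

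**Figure D4:**
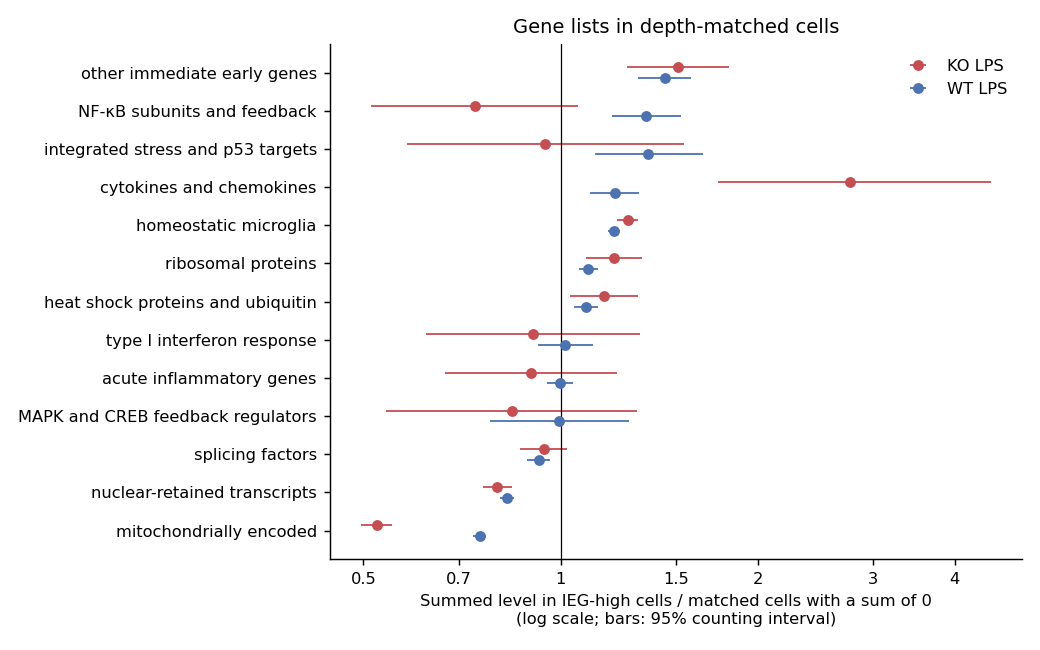
Ratio of the summed level of 13 gene lists between IEG-high cells and their depth-matched partners with a sum of 0 (horizontal axis, log scale, bars 95% counting intervals), for KO LPS (red) and WT LPS (blue). The other immediate early genes lie at 1.51 and 1.44 and the mitochondrially encoded transcripts at 0.524 and 0.752.

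Genes of the homeostatic microglia profile, which mark unstimulated microglia, were slightly higher in members. Their sum was 99447 against 78585 CPM in KO LPS, 1.27-fold (1.22 to 1.31), and 74304 against 61639 in WT LPS, 1.21-fold (1.18 to 1.23). Of 33 measured genes 29 had a ratio above 1 in KO LPS and 27 of 34 in WT LPS, beside 680 of 1197 and 2568 of 4821 over all genes with at least 20 UMIs. Only 3 and 2 of the list passed 1.5-fold, smaller shares than the 19.7% and 12.6% over all genes, and 0 were called lower. P2ry12, the purinergic receptor of resting microglia, was at 1.47 (1.20 to 1.80) in KO LPS and 1.17 (0.883 to 1.56) in WT LPS, and Csf1r, the receptor that microglia need to survive, at 1.60 (1.24 to 2.07) and 1.18 (1.00 to 1.39). Cst3, a cysteine protease inhibitor, was at 1.44 (1.34 to 1.56) and 1.24 (1.19 to 1.30). Cx3cr1, the fractalkine receptor, was at 1.06 (0.918 to 1.22) and 1.14 (1.04 to 1.24). When Jun and Fos were left out of the rule, P2ry12 was lower in KO LPS members, at a log2 ratio of -0.45, and Cx3cr1 of WT LPS was at -0.051. Itgam, which encodes the CD11b used in the sort, was the lowest of the list in WT LPS at 0.752 (0.660 to 0.857).

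Golm1, a Golgi membrane protein gene counted with this profile, stood out of the list. It had 91 UMIs in the KO LPS members and 45 in their partners, 1.86-fold (1.29 to 2.73), and 205 against 86 in WT LPS, 2.13-fold (1.65 to 2.77). In WT LPS it was seen in 109 of 208 members and 66 of 208 partners, whereas in KO LPS 31 of 50 members and 28 of 50 partners held it. The KO LPS value turned to a log2 ratio of -0.22 when Jun and Fos were left out of the rule. Rnase4, a secreted ribonuclease, was at 1.48 (1.01 to 2.19) and 1.72 (1.35 to 2.19), and at 1.37 (0.930 to 2.05) in KO LPS without its richest member.

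Markers of some other cell types were higher in the cells with a sum of 0, largely through single cells. In KO LPS the 7 choroid plexus markers in the matrices summed to 10 UMIs in the members and 758 in their partners, and 748 of these lay in 1 cell, which held 646 of the 654 UMIs of Ttr, the thyroid hormone carrier made by that epithelium. In WT LPS the same markers had 9 UMIs in members and 2 in partners. Astrocyte markers were at 201 against 1138 CPM in KO LPS and 161 against 591 in WT LPS, ratios of 0.176 (0.0893 to 0.322) and 0.273 (0.191 to 0.384). A single partner held 35 of the 68 KO LPS partner UMIs and 86 of the 147 in WT LPS, and without it the ratios were 0.352 (0.170 to 0.686) and 0.650 (0.432 to 0.971). An astrocyte UMI was seen in 12 members and 17 partners of KO LPS, and in 36 members and 32 partners of WT LPS. In KO LPS, endothelial markers had 18 against 39 UMIs, 21 of them in 1 partner, and neuronal markers 0 against 6, whereas oligodendrocyte markers had 7 on each side, monocyte markers 1 on each side and B lymphocyte markers 8 against 4. In WT LPS neuronal markers had 16 against 39 UMIs, 0.366 (0.191 to 0.670), and 0.590 (0.293 to 1.16) without the 1 partner that held 15, whereas endothelial markers had 69 against 56 UMIs, 1.10 (0.761 to 1.59). Per cell, astrocyte markers made up at most 0.148% and 0.214% of the UMIs of members, against at most 1.85% and 2.74% in their partners. All members of the pairs held microglia markers, which summed to 33797 against 27377 CPM in KO LPS and 21172 against 17528 in WT LPS. The 3 T or NK lymphocyte markers in the matrices had 0 UMIs in the pairs of both libraries, and neutrophil and erythroid markers 0 in KO LPS. Without the cells that held at least 3 UMIs of such markers, the homeostatic sum was 0.17 higher in KO LPS members on the log2 scale, against 0.34 with them, and 0.23 in WT LPS, against 0.27. The other immediate early genes were then 0.51 higher in both libraries, against 0.59 and 0.53.

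Mitochondrially encoded transcripts were lower in members, at 31297 against 59742 CPM in KO LPS, a ratio of 0.524 (0.496 to 0.553), and 46904 against 62351 in WT LPS, 0.752 (0.735 to 0.770). Free RNA held them at 86130 CPM in KO LPS and 155662 in WT LPS, above members and partners. All 12 measured genes were called lower in KO LPS and 4 of 14 in WT LPS. The ribosomal RNA mt-Rnr1 was at 0.326 (0.253 to 0.416) and 0.596 (0.545 to 0.652), and mt-Rnr2 at 0.582 (0.546 to 0.620) and 0.750 (0.730 to 0.770). A few partners held much of this. Per cell these transcripts took a median of 3.02% of UMIs in KO LPS members and 3.36% in partners, but the highest partner reached 35.9% and the highest member 6.68%. In WT LPS the medians were 4.34% and 5.15% and the maxima 10.5% and 43.1%. In KO LPS the list was only 0.22 lower on the log2 scale without the cells with markers of other types, against 0.93 with them. Without those cells mt-Co1 turned from 0.290 (0.158 to 0.509) to a log2 ratio of 0.41.

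Nuclear-retained transcripts were lower as well in their sum, with ratios of 0.801 (0.762 to 0.842) in KO LPS and 0.829 (0.808 to 0.850) in WT LPS. Free RNA held them at 65297 CPM in KO LPS and 81460.5 in WT LPS, above the 55759 and 50261 CPM of the partners. Of the genes with at least 20 UMIs, 0 of 3 were called lower in KO LPS and 1 of 8 in WT LPS. A ratio above 1 was seen for 1 and 3 of them, so that the sums do not stand for each gene. Splicing factor mRNAs were at 0.942 (0.867 to 1.02) and 0.926 (0.888 to 0.965). The per-cell share of nuclear-retained transcripts had a median of 4.32% in KO LPS members and 5.07% in partners, and 4.12% and 4.64% in WT LPS. Ribosomal protein mRNAs were higher, at 1.21 (1.09 to 1.33) and 1.10 (1.07 to 1.14). Members and partners thus differed in nuclear, mitochondrial and cytoplasmic RNA, whose shares are often used to judge how intact a captured cell was, and the part of this in the other differences was not tested.

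The other immediate early and homeostatic genes rose in steps with the sum of the 9 genes, and not only at the limit of 4. Among cells of 750 to 2000 UMIs, the other immediate early genes were at 3523, 4181, 4620 and 5133 CPM in KO LPS cells with sums of 0, 1, 2 to 3, and 4 or more. The same classes of WT LPS stood at 3183, 3502, 3960 and 4232. Homeostatic genes went from 84297 to 99963 CPM in KO LPS and from 60454 to 74033 in WT LPS. Nuclear-retained transcripts went from 55577 to 45343 in KO LPS and from 53132 to 42497 in WT LPS. Mitochondrially encoded transcripts went from 48809 to 31741 in KO LPS between sums of 0 and 1, and stayed between 30855 and 31741 above, while in WT LPS they were at 59895, 54724, 48786 and 48489. Depth moved with the classes as well, with medians of 1035, 1015, 1089 and 1312.5 UMIs for KO LPS, and of 1004 to 1372 UMIs for WT LPS.

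**Figure D5:**
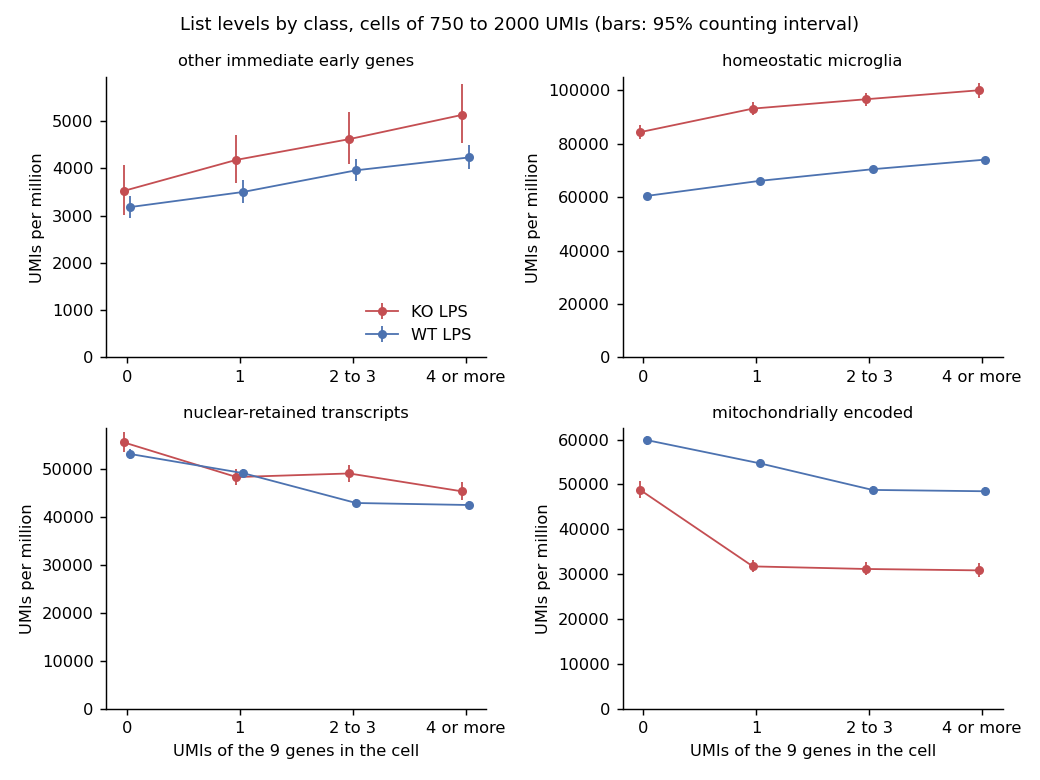
Summed level (CPM, bars 95% counting intervals) of 4 gene lists in cells of 750 to 2000 UMIs, by the cell's UMIs of the 9 immediate early genes (horizontal axis), for KO LPS (red) and WT LPS (blue). The other immediate early genes climb from 3523 to 5133 and from 3183 to 4232 over the classes, and the nuclear-retained transcripts go down from 55577 to 45343 and from 53132 to 42497.

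The acute inflammatory list, genes that microglia raise after LPS, was at about the same summed level on both sides. It was at 0.902 (0.667 to 1.22) in KO LPS and 0.999 (0.953 to 1.05) in WT LPS, with levels of 1389 against 1540 and 13560 against 13577 CPM. Single genes of WT LPS went both ways. Of 14 genes 2 were called higher and 1 lower, beside 12.6% and 12% over all genes with at least 20 UMIs. The gene called lower was Hp, with 7 against 20 UMIs, at 0.312 (0.112 to 0.769). Without the partner that held 9 of these it was at 0.566 (0.186 to 1.60). Cebpb, a transcription factor of the acute phase, had 211 UMIs in members and 116 in partners, 1.62-fold (1.29 to 2.05). Gpr84, a receptor for medium-chain fatty acids, was at 1.53 (1.24 to 1.88), Il1r2, the interleukin-1 decoy receptor, at 1.49 (1.06 to 2.10; 0.967 to 1.94 without its richest member) and Cd14, the LPS co-receptor, at 1.45 (1.13 to 1.86), which went to a log2 ratio of -0.072 in cells with Xist only. Saa3, an acute-phase apolipoprotein, was at 0.781 (0.713 to 0.856) and went to 0.957 (0.869 to 1.05) without the 1 partner that held 189 of its 1007 partner UMIs. Without pairing, Saa3 was 0.33 higher in members on the log2 scale. Lcn2 was at 1.19 (0.934 to 1.52) and at 1.58 (1.21 to 2.07) without the 1 partner that held 30 of its UMIs, but at a log2 ratio of -0.70 without Jun and Fos in the rule. In KO LPS only Cd14 and the ferritin gene Fth1 reached 20 UMIs, at 0.845 (0.338 to 2.09) and 0.788 (0.522 to 1.18).

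Cytokine and chemokine genes were 1.21 times as high in WT LPS members (1.11 to 1.32) and 2.77 times in KO LPS members (1.74 to 4.54, 75 against 25 UMIs). Single cells carried much of both values. Without the member with the most UMIs of the list, the ratio was 1.08 (0.989 to 1.18) in WT LPS and 1.91 (1.16 to 3.22) in KO LPS. Il1b, the gene of interleukin-1β, was the gene with the largest ratio of those with at least 50 UMIs in WT LPS, with 104 UMIs in 30 of 208 members and 18 UMIs in 8 of 208 partners, 5.15-fold (3.11 to 9.04). Without the member that held 26 of them it was at 3.91 (2.32 to 6.94). The monocyte attractant Ccl2 was at 2.08 (1.47 to 2.98) and Ccl12 at 1.21 (1.07 to 1.36), which was 1.02 (0.899 to 1.15) without the member that held 113 of its UMIs and a log2 ratio of -0.47 in cells with Xist only. Ccl5 was at 0.671 (0.510 to 0.880), and at a log2 ratio of 0.043 without pairing. Ccl3 was at 0.654 (0.433 to 0.982), but 43 of its 60 partner UMIs lay in 1 cell, without which it was at 2.30 (1.29 to 4.29). It was seen in 27 members and 10 partners.

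Genes of the NF-κB pathway, which turns LPS sensing into transcription, were at 1.35 (1.20 to 1.53) in WT LPS members and at 0.740 (0.513 to 1.06) in KO LPS members, where the list had 57 against 71 UMIs. In WT LPS 3 of 11 genes were called higher and 0 lower, beside 12.6% and 12% over all genes with at least 20 UMIs. Nfkbia, the inhibitor that NF-κB itself induces, had 390 against 231 UMIs in WT LPS, 1.51-fold (1.28 to 1.78). In KO LPS it had 13 against 17, at 0.705 (0.315 to 1.54), and went to 1.16 (0.469 to 2.95) without the partner that held 7. The integrated stress and p53 targets were at 1.36 (1.13 to 1.65) in WT LPS and 0.948 (0.583 to 1.54) in KO LPS. Ddit4, a stress-induced brake on mTORC1, led them in WT LPS with 105 against 46 UMIs, 2.04-fold (1.43 to 2.95), while Atf4 was at 1.07 (0.723 to 1.60). Whether KO LPS and WT LPS differ in these lists was not tested, and single-library counts do not allow it.

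Heat shock proteins and ubiquitin genes were at 1.16 (1.03 to 1.31) in KO LPS and 1.09 (1.05 to 1.14) in WT LPS. The chaperone genes Hspa5, at 1.26 (0.971 to 1.64) and 1.14 (1.06 to 1.23), and Hspa8, at 1.31 (0.824 to 2.12) and 1.19 (1.01 to 1.40), were not called. The type I interferon response was at 0.907 (0.622 to 1.32) and 1.02 (0.923 to 1.12). In WT LPS 2 of its 21 genes were called higher and 3 lower, beside 12.6% and 12% over all genes with at least 20 UMIs. Its highest gene there was Herc6 at 1.98 (1.02 to 4.02) and its lowest Rsad2, an antiviral enzyme, at 0.141 (0.0267 to 0.478), with 9 of 19 partner UMIs in 1 cell, without which it was at 0.267 (0.0471 to 1.04). Herc6 went to a log2 ratio of -0.079 with a limit of 3 UMIs for members, and Rsad2 to 0.20 without Jun and Fos in the rule.

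Some single genes were called in both libraries. Of 343 genes with at least 50 UMIs in each, 55 were higher in KO LPS members and 12 in WT LPS members, and 4 were higher in both, which is 7.27% of the KO LPS genes and 33.3% of the WT LPS genes. Over all 343 genes, 3.5% were higher in WT LPS and 16.03% in KO LPS. They included Golm1, H3f3b and Rhob. H3f3b, which encodes the replication-independent histone H3.3, had 34 against 20 UMIs in KO LPS, 1.57-fold (0.877 to 2.87), and 209 against 85 in WT LPS, 2.19-fold (1.70 to 2.86). Rnase4, Trf, Abhd12, Sepp1, Sirpa and Cd53 followed, with ratios of at least 1.36 in each library. Of 31 and 15 genes called lower, 7 were shared, which is 22.6% and 46.7%, where 4.37% of all 343 were lower in WT LPS and 9.04% in KO LPS. They were mt-Rnr1, the rRNA-like Gm26924, the cytoskeletal linker gene Dst, the RNA-processing genes Luc7l3 and Zfc3h1, and Phf14 and Ddx26b. Without Jun and Fos in the rule, the KO LPS ratios of Golm1, Trf, Sirpa, Ddx26b and Dst and the WT LPS ratio of Abhd12 changed sides. Across the 343 genes the ratios of the libraries had a Spearman correlation of 0.30, as a description over genes measured in the same cells, which are not independent.

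Among the 346 measured genes of KO LPS the 12 highest included Plek, Ubash3b, Ptbp3, Ncf1, Jak1, Wasf2, Arid4a, Ctsl, Eif5b, Fcer1g and St13, at ratios of 1.94 to 3.04. Plek, a protein kinase C substrate of blood and immune cells, had 56 UMIs in 27 members and 17 in 14 partners, 3.04-fold (1.74 to 5.58), but was at 1.12 (0.921 to 1.35) in WT LPS. Ncf1, a subunit of the phagocyte NADPH oxidase, had 45 against 19 UMIs, and Fcer1g, an adaptor of Fc receptors, 40 against 19, at 1.94 (1.10 to 3.55), or 1.69 (0.936 to 3.13) without its richest member. Ncf1 and Ubash3b turned below 1 without Jun and Fos in the rule, and Ncf1 and Eif5b when cells were thinned. The 8 lowest were Ttr, Enpp2, mt-Co1, mt-Rnr1, mt-Nd4, Apoe, Gm26924 and Matr3, of which mt-Nd4 changed sides without Jun and Fos in the rule. Enpp2 had 82 of its 83 partner UMIs in 1 cell, and without its top cell Apoe was at 0.738 (0.373 to 1.44).

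Among the 2192 measured genes of WT LPS the 12 highest were Il1b, Spint1, Ier5, Ctr9, Erp44, Tpm4, Pfkfb3, Ndufb8, Sdha, Snx4, H3f3b and Sec11a, at ratios of 2.19 to 5.15. Spint1, a membrane-bound inhibitor of serine proteases, had 69 UMIs in 56 members and 19 UMIs in 19 partners, 3.24-fold (1.93 to 5.70). Ctr9, a scaffold of the PAF1 complex that travels with RNA polymerase II, had 52 against 15 UMIs, 3.09-fold (1.71 to 5.91). Pfkfb3, which sets the level of an activator of glycolysis, was at 2.40 (1.32 to 4.56). The respiratory chain genes Ndufb8 and Sdha were at 2.30 (1.33 to 4.14) and 2.29 (1.21 to 4.60). The 8 lowest were Terf2ip, Nvl, Ddx60, Arhgef2, Ttc3, Ccnt2, Mga and Arhgap4, at ratios of 0.154 to 0.468. Terf2ip had 48 of its 52 partner UMIs in 1 cell and was at 2.00 (0.557 to 8.87) without it. Ccnt2, a cyclin of the P-TEFb elongation kinase, was seen in 24 members and 46 partners, at 0.446 (0.270 to 0.721).

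Park7 itself had 48 UMIs in the WT LPS members of the pairs and 29 in their partners, 1.48-fold (0.912 to 2.43), and did not differ beyond counting error. The single Park7 UMI of KO LPS cells lay in a member.

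Members were found among cells with Xist and among cells with Y-linked UMIs. In KO LPS 49 of 200 cells with Xist only were members (24.5%, 18.7 to 31.1) and 2 of 12 with Y-linked UMIs only. In WT LPS 133 of 565 cells with Xist only were members (23.5%, 20.1 to 27.3) and 56 of 195 with Y-linked UMIs only (28.7%, 22.5 to 35.6), whose median depths were 1133 and 1287 UMIs. Cells with both kinds of UMI, which can be doublets or carry free RNA, numbered 9 in KO LPS, of which 0 were members (exact upper limit 33.6%), and 80 in WT LPS, of which 37 were members (46.2%). These 80 cells had a median of 2199 UMIs. Of the cells with neither kind, 11 of 99 in KO LPS (11.1%, 5.68 to 19.0) and 115 of 587 in WT LPS (19.6%, 16.5 to 23.0) were members, at median depths of 844 and 922 UMIs. Doublets were left in, and their part in the members was not tested.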

How the data were processed

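Per the labels, sorted CD11b+CD45int brain microglia of 1 KO LPS and 1 WT LPS library were measured by Drop-seq. The authors deposited raw counts (UMIs of each gene in each barcode) for 9999 barcodes per library, not filtered to cells. Missing values were read as 0. The submitters' processing notes name bcl2fastq 2.0, STAR and the mouse builds mm9 and mm10, without saying which step used which build, so no coordinate was taken from the counts. Whether counting used the strand is not given in the sources used here, and counts of overlapping genes are uncertain.

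Calculations were made in Python 3.11.15 (numpy 2.4.6, scipy 1.17.1; figures with matplotlib 3.10.9). Cells had at least 500 UMIs and 100 genes. Members were paired 1 to 1 with cells of a sum of 0 by optimal assignment on UMIs outside the 9 genes, with totals that differed by at most 20% of the deeper cell. Levels are CPM (UMIs per 1e6 UMIs) outside these genes, with exact Poisson intervals. Ratios of the summed UMIs have exact conditional binomial intervals, shares Clopper-Pearson intervals (95% each), and log2 ratios a prior count of 0.5. A gene was called at 1.5-fold, with at least 50 UMIs over both sides (20 within lists). Thinning drew UMIs without replacement. Doublets were left in.

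No test was made: cells of 1 library are not replicates, and the MAST test that the study used was left out. The pairing and the ratios were tested on simulated data with known fold changes. The simulated cells of each side shared 1 profile of levels, so that this could not show how single cells rich in a gene move a ratio. Genes were named by a rule: the 12 highest and 8 lowest ratios per library, the 10 highest and 6 lowest over both libraries, the highest and lowest of each list, the 9 rule genes and Park7. Other list genes were named after their values were seen. Some genes that the rule names are not reported here. The members and the lists were chosen with earlier results of these data known. The lists of other immediate early, homeostatic, inflammatory and other genes came from general knowledge. Promoters came from a RefSeq table. Alternatives covered pairing, thinning, the limit for members, the rule genes, the cell filter, sex, cells with markers of other types, gene filters, the weight of cells and single cells.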

Additional observations from a re-analysis of the deposited data

Results flagged for a closer look

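The 9 immediate early genes also gave a signal in barcodes too small to count as cells, which enter no comparison of members with their partners. Barcodes with 100 UMIs or fewer held them at 1595 CPM in KO LPS, 317 UMIs in all, which is above the 1283 CPM of the same barcodes of WT LPS by a ratio of 1.24 (1.07 to 1.44).

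St3gal6, a sialyltransferase gene, was the single gene of 343 that was called in opposite directions in the libraries. In KO LPS it had 25 UMIs in members and 46 in partners, 0.501-fold (0.295 to 0.833) or -0.98 on the log2 scale. In WT LPS it had 49 against 26, 1.68-fold (1.02 to 2.82) or 0.74 on the log2 scale. The difference between the libraries was not tested. When cells were thinned to 400 UMIs instead of paired, the WT LPS value was -0.78.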

How the results depend on the processing

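No paired analysis was possible because there was 1 library per genotype. Depth is among the limits: most cells held under 9 immediate early UMIs, the KO LPS pairs rested on 50 cells a side, and most single-gene intervals are wide.

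The share of members was 8.44% in KO LPS and 12.1% in WT LPS with a sum of at least 6, 26.6% and 34.3% with at least 3, 5.62% and 10.7% without Jun and Fos in the rule, and 29.7% and 37.8% among cells of at least 1000 UMIs. It was 24.5% in KO LPS cells with Xist only. In WT LPS it was 28.7% in cells with Y-linked UMIs only, 21.2% without the 5% of cells with most UMIs and 20.1% without cells with markers of other types.

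Genes called higher in KO LPS, 56 as reported, numbered 86 without pairing, 16 after thinning to 400 UMIs, 30 with a sum of at least 6, 15 without Jun and Fos, 34 at 1000 UMIs per cell, 23 with Xist only, 22 without cells with markers of other types, 236 with at least 20 UMIs per gene and 2 with at least 200. Genes called lower, 33 as reported, numbered 10 after thinning, 15 with a sum of at least 6, 12 without Jun and Fos, 151 with at least 20 UMIs per gene and 5 with at least 200. In WT LPS the higher and lower genes, 165 and 140 as reported, numbered 414 and 297 without pairing, 105 and 76 with a sum of at least 6, 96 and 75 at 1000 UMIs per cell, 50 and 49 with Xist only, 16 and 18 with Y-linked UMIs only, 606 and 580 with at least 20 UMIs per gene, and 11 and 7 with at least 200. Fewer cells or genes entered most of these, so that the counts cannot be compared as they stand. With at least 20 UMIs per gene, 1197 genes were measured in KO LPS instead of 346, and 4821 in WT LPS instead of 2192. The shares called there were 19.7% higher and 12.6% lower in KO LPS, and 12.6% and 12% in WT LPS. Shares for the other settings are not given here, and no move of a count is read as a result about the members.

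On the log2 scale, homeostatic genes of KO LPS, 0.34 as reported, were at 0.70 with a sum of at least 6, 0.20 without Jun and Fos, 0.46 at 1000 UMIs, 0.28 without the 5% of cells with most UMIs, 0.17 without cells with markers of other types and 0.22 as a mean of per-cell shares. Those of WT LPS, 0.27 as reported, were at 0.33 without pairing, 0.39 after thinning, 0.18 with a sum of at least 6, 0.20 without Jun and Fos, 0.23 at 1000 UMIs, 0.18 with Xist only, 0.33 with Y-linked UMIs only, 0.23 without cells with markers of other types and 0.31 as a mean of per-cell shares. The other immediate early genes of WT LPS, 0.53 as reported, were at 0.37 without pairing and 0.32 with Y-linked UMIs only, and stayed between 0.51 and 0.71 in KO LPS over 14 alternatives. Acute inflammatory genes of WT LPS, 0.00 as reported, were at 0.28 without pairing, 0.29 after thinning, -0.22 with a sum of at least 6, -0.29 with Y-linked UMIs only and 0.085 without their highest cell. The causes of these moves were not tested.

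Of the 2565 alternative values of single genes, 207 changed sides, 182 of them for genes reported below 1.5-fold, in 70 of 114 pairs of gene and library. For genes reported at 1.5-fold or more, 25 of 1222 values changed sides, in 19 of 110 pairs of gene and library. In KO LPS these were Eif5b at -0.28, Ncf1 at -0.0023 and Srrm1 at -0.15 after thinning, Ddx26b at 0.21 with a sum of at least 6, and, without Jun and Fos, Ddx26b at 0.23, Golm1 at -0.22, Ncf1 at -0.20, Sgk1 at -0.24, Trf and Ubash3b at -0.11, mt-Nd4 at 0.25 and Dst at 0.029. mt-Co1 was at 0.41 without cells with markers of other types, and Enpp2 at 0.55 and mt-Tv at 0.68 without their highest cell. In WT LPS Ccl3 was at 0.050 without pairing, 0.49 after thinning, 1.09 without Jun and Fos, 3.94 with Xist only and 1.17 without its highest cell. Zfp36 was at -0.36 and St3gal6 at -0.78 after thinning, Herc6 at -0.079 with a sum of at least 3, Rsad2 at 0.20 without Jun and Fos, and Terf2ip at 0.91 without its highest cell. KO LPS cells with Y-linked UMIs only gave 1 pair, so that no ratio was computed. The removal of single cells and the reading of each rule gene by the other 8 were chosen after seeing the data.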
